A study of Homo sapiens with 8 samples.

Results

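Purine and pyrimidine metabolism was followed in MDA-MB-157 cells through 41 genes of nucleotide synthesis, salvage, turnover and deoxynucleotide supply. The members were picked by gene symbol from knowledge of the pathway, with earlier results of these data known. All 41 were found among the 21059 genes of the deposited table. They were sorted by role into 12 genes of de novo purine synthesis, 5 of de novo pyrimidine synthesis, 5 of salvage, 8 of nucleoside and nucleotide turnover, 8 of deoxynucleotide metabolism and 3 nucleotide kinases. MDA-MB-157 is an established breast cancer line that is negative for the estrogen receptor (ER) per the labels. Low glucose cells (4 libraries, LG1 to LG4) were given 5 mM glucose and high glucose cells (4 libraries, HG1 to HG4) 25 mM glucose, both for 48 hours before RNA was isolated. Per the study's methods, both groups had been conditioned in low glucose and were without serum during the treatment, and the osmotic control with mannitol is not among the libraries analysed here. RNA was sequenced in bulk from 1 cell line, and no source used here says whether the replicates were separate experiments, so p-values measure the spread between these libraries, which may be technical.

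Cells make nucleotides by 2 routes. De novo synthesis builds the purine ring step by step on phosphoribosyl pyrophosphate (PRPP), and the pyrimidine ring from carbamoyl phosphate and aspartate, drawing on glutamine, glycine and folate-carried carbon units. Salvage reattaches free bases to PRPP or phosphorylates nucleosides, while phosphorylases, deaminases and nucleotidases take nucleotides apart. Ribonucleotide reductase then converts ribonucleotides to the deoxynucleotides used for DNA, and nucleoside mono- and diphosphate kinases supply the triphosphates. Proliferating tumor cells draw heavily on these routes, several of which are targets of antimetabolite drugs.

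Values are counts per 1e+06 reads (CPM), as scaled by the authors, and the 8 libraries held 9.72e+06 to 1.25e+07 reads in the table, where 3 reads were worth 0.212 to 0.267 CPM. Library HG1 stood apart from the other high glucose libraries along transcript length. Over 11223 genes, the deviation of each library from its group correlated with transcript length at a Spearman's rho of -0.65 in HG1, 0.25 to 0.47 in HG2 to HG4 and -0.13 to 0.06 in the low glucose libraries, as a description. All 16 members with a transcript under 2000 bases were higher in HG1 than the mean of HG2 to HG4, by a median of 0.26 on the log2 scale (0.09 to 0.66), against 9 of 17 members of at least 3000 bases (median 0.03). Results that rest on HG1 are therefore given with and without it. Against the labelled cell type, ESR1, the gene of the estrogen receptor, was at 0 to 0.17 CPM in every library. The epithelial keratins KRT8 and KRT18 were present (131 and 233 CPM at low glucose) beside a high level of the mesenchymal gene VIM (4091 CPM), while E-cadherin (CDH1) was near 1 CPM, KRT19 was near 0 and KRT14 was at 0. Epithelial and mesenchymal markers moved with the groups too, in both directions. Of 11 epithelial markers, 3 were called lower at high glucose, with log2 changes of -0.57 for KRT8, -0.46 for KRT18 and -0.69 for ERBB2. EPCAM (0.54) and GATA3 (0.89, near 1 CPM at high glucose) were called higher. Of 6 mesenchymal markers, 4 were lower, VIM (-0.47) and SNAI2 (-0.76) among them, and 2 were higher, CDH2 (0.44) and ZEB1 (0.44). The part of these markers in the changes of the members was not tested. The leukocyte gene PTPRC was at 0 to 0.178 CPM, and the 6 immune and endothelial marker genes in the table, of 8 listed, summed to 13.2 to 17.4 CPM in the low and 16.1 to 20.4 CPM in the high glucose libraries. Within this sum CD14, a monocyte gene, was called higher, from 1.25 to 4.24 CPM, as was PECAM1, from 1 to 2.13 CPM. VWF (1.45 to 0.31 CPM) and CDH5 (0.28 to 0.02 CPM) were called lower. PTPRC and CD68 were not called.

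**Figure D1:**
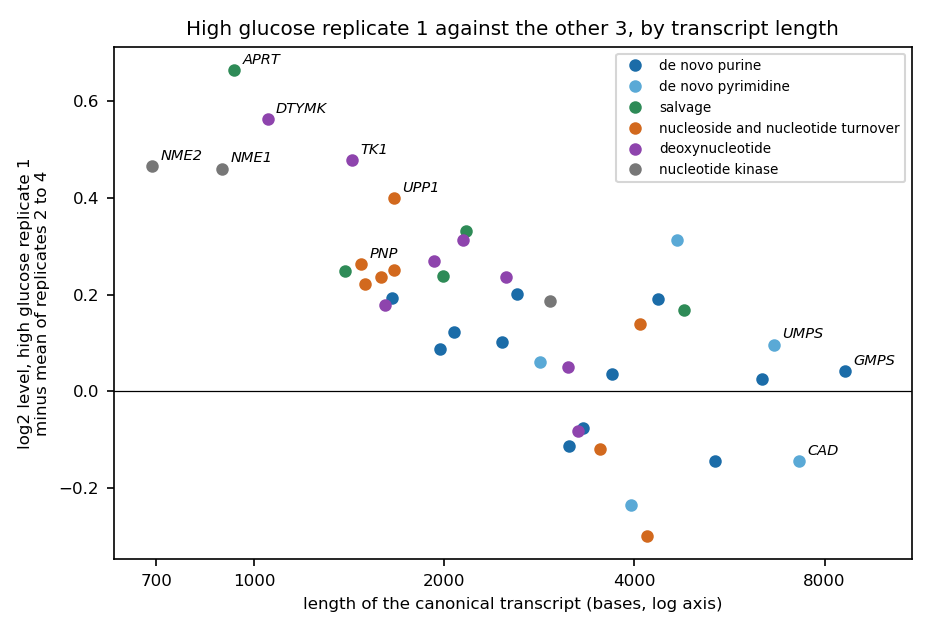
Log2 level in HG1 minus the mean of HG2 to HG4 (vertical axis) for each member, against the length of its canonical transcript in bases (horizontal axis, log scale), colored by arm of the pathway. The short transcripts of APRT, DTYMK, TK1, NME1 and NME2 lie highest, and all 16 members under 2000 bases lie above 0.

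At high glucose, 15 of the 41 members were higher, 11 were lower and 15 did not pass an adjusted p of 0.05 (limma on log2(CPM + 1), Benjamini-Hochberg over all genes). The 26 called members were 63.4% of the 41, against 46.8% of the 21059 genes tested and 66.9% of the 11297 genes with a mean of at least 5 CPM, a level that 40 of the 41 members reached. The share of members called was thus close to that of genes at a like level, and what follows describes single genes and steps. Over all genes, 22% were called higher and 24.8% lower, and the median log2 change was 0.02 over the members and -0.01 over all genes. The high glucose values lay wholly above the low glucose values in 14 members and wholly below them in 11, which leaves 16 members with overlap. Groups without overlap were found in 44.5% of all genes and 65% of those of at least 5 CPM. A called change of at least 0.5 on the log2 scale was seen in 10 members, against 24.5% of all genes and 33.6% of those of at least 5 CPM. Without HG1, 14 members were higher and 13 lower, when 48.2% of all genes were called. With the trend along transcript length removed, 17 were higher and 11 lower, when 51% of 20730 genes were called. In bulk RNA, a smaller share of cells that express a gene cannot be told apart from less of its RNA per cell.

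**Figure D2:**
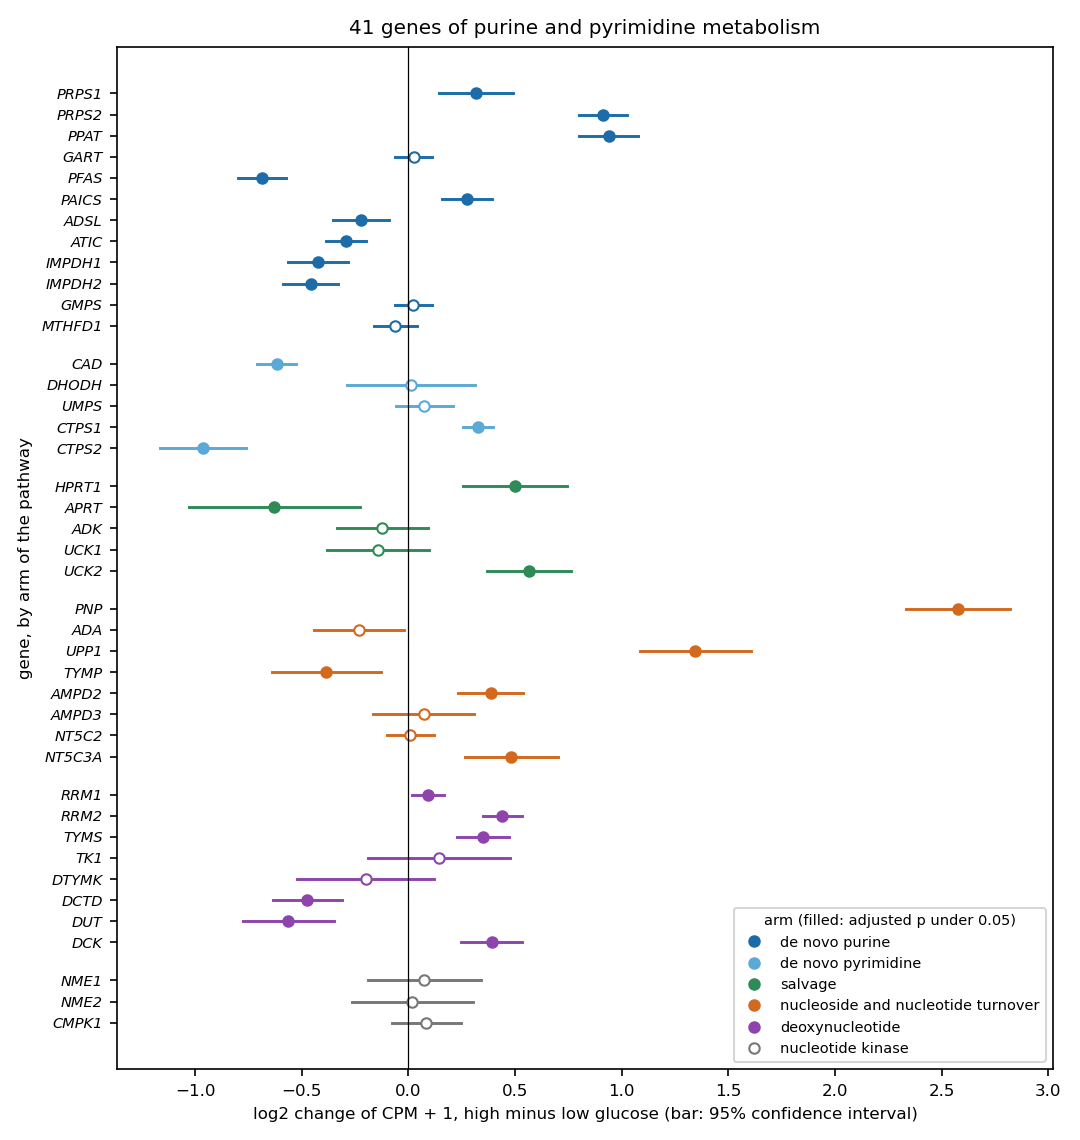
Log2 change of CPM + 1, high minus low glucose (horizontal axis), for the 41 members ordered by arm (vertical axis). Points are fitted changes, bars are 95% confidence intervals, and filled points passed an adjusted p of 0.05. PNP (2.58) and UPP1 (1.35) lie farthest to the right, and CTPS2 (-0.96) farthest to the left.

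De novo purine synthesis divided between its entry steps, which were higher at high glucose, and several later steps, which were lower. Of its 12 genes, 4 were higher, 5 lower and 3 not called, with a median log2 change of -0.02. The gene of glutamine PRPP amidotransferase, PPAT, whose enzyme commits PRPP to the purine ring, was at 20.8, 22.3, 23.4 and 23.5 CPM in LG1 to LG4 and at 44.8, 47.1, 44 and 40.3 CPM in HG1 to HG4. Every high glucose library was thus above every low glucose one, and the log2 change was 0.94 ± 0.06 (SE, n = 4 and 4, limma adjusted p = 1.88e-05). PRPP itself is made by the synthetases PRPS1 and PRPS2. PRPS2 was at 27.3, 26.6, 25.7 and 24.3 CPM in the low glucose libraries and at 52.4, 47.1, 51.1 and 48.3 CPM in the high glucose libraries. Its groups were also far apart, with a log2 change of 0.91 ± 0.05 (SE, limma adjusted p = 9.62e-06). PRPS1 was at 26.9, 26.8, 23.4 and 22.1 CPM in the low and 33.2, 30.4, 29.3 and 31.6 CPM in the high glucose libraries, without overlap but with a smaller change of 0.32 ± 0.07 (SE, limma adjusted p = 0.00972).

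The 250 bases before the start of PPAT and PRPS2 are shown because these were the largest rises among the synthesis genes, and because a motif searched for is present in each. They are from RefSeq on GRCh38.p14, written 5′ to 3′ on the strand of the gene, chr4:56435616-56435865 (minus strand) for PPAT and chrX:12791162-12791411 (plus strand) for PRPS2. Capitals mark an E-box in PPAT, at position -182 from the start, and an E2F motif in PRPS2, at position -12.
PPAT: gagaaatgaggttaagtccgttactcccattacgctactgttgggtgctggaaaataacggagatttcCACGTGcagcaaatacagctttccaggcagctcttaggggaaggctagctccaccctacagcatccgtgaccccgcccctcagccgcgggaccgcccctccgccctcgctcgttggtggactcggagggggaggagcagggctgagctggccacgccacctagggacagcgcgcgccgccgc
PRPS2: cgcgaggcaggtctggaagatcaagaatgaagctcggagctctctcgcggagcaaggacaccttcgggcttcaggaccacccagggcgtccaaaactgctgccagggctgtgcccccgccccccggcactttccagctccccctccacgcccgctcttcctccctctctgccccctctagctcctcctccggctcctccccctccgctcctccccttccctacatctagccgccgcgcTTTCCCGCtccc
The E-box, CACGTG, was in 6 of the 39 members with a RefSeq promoter (15.4%) and in 6.49% of all 27305 promoters, searched on both strands. Besides PPAT, these were ATIC, MTHFD1, DHODH, AMPD2 and DCK, of which PPAT, AMPD2 and DCK were higher, ATIC was lower and MTHFD1 and DHODH were not called. The E2F motif, TTTCCCGC or TTTGGCGC on either strand, was in PRPS2 and in TYMS, 5.13% of the members against 1.96% of all promoters. An AP-1 motif, TGACTCA, was in NME1 (2.56% of the members against 4.16% of all promoters). An ATF4 motif, TGATGNAA, was in DCTD (2.56% against 3.19%). These matches describe the letters in the window and are not binding sites.

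Among the later purine steps, PFAS, which makes formylglycinamidine ribonucleotide, had the largest fall. It was at 43.5, 43.7, 42.2 and 46.5 CPM at low glucose and at 24.9, 28.4, 27.9 and 26.7 CPM at high glucose. The groups were widely separated, and the log2 change was -0.69 ± 0.05 (SE, limma adjusted p = 3.25e-05). PAICS, whose enzyme has the carboxylase and SAICAR synthetase steps that follow, was higher by 0.28 on the log2 scale (adjusted p = 0.00301 by limma), from 99.3 ± 3.34 to 121 ± 7.82 CPM (SD, n = 4 in each group). PAICS and PPAT are divergent neighbours whose starts lie 645 bases apart in GENCODE on GRCh37, and both were higher. In RefSeq the PAICS gene is given an earlier start, at 56410507 on chromosome 4 of GRCh38.p14 and inside PPAT, and the motif search used the window before that start. ADSL, the adenylosuccinate lyase, and ATIC, which closes the purine ring, were lower by smaller amounts. Their log2 changes were -0.22 (adjusted p = 0.0138 by limma) and -0.29 (adjusted p = 8.18e-04 by limma). Of the 31-base words of the ADSL transcript, 28.8% also occur in an annotated gene that overlaps it on the same strand. GART, a trifunctional enzyme of the early steps, GMPS, the GMP synthetase, and MTHFD1, which supplies formyl folate, had log2 changes of 0.02, 0.02 and -0.06 and were not called, with 95% intervals within -0.16 to 0.11.

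Both IMP dehydrogenase genes, which open the branch to guanine nucleotides, fell. IMPDH1 was at 63.6, 62.4, 63.3 and 67.4 CPM at low glucose and at 52.9, 48.1, 45.9 and 43.7 CPM at high glucose, so that the log2 change was -0.42 ± 0.06 (SE, limma adjusted p = 9.03e-04). IMPDH2 was at 89.5, 85.3, 87.2 and 83.7 CPM at low glucose and at 69.3, 57.6, 61.4 and 62.6 CPM at high glucose, so that the change was -0.46 ± 0.05 (SE, limma adjusted p = 4.32e-04). In neither gene did the groups overlap. Of the 31-base words of the IMPDH2 transcript, 98.8% also occur in an annotated readthrough transcript on the same strand, so its count is uncertain to the extent that reads were shared out between them. The summed level of the 12 purine genes lay between 804 and 838 CPM in the low glucose libraries and between 787 and 829.8 CPM in the high glucose libraries, so that the rises and falls left overlapping totals.

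**Figure D3:**
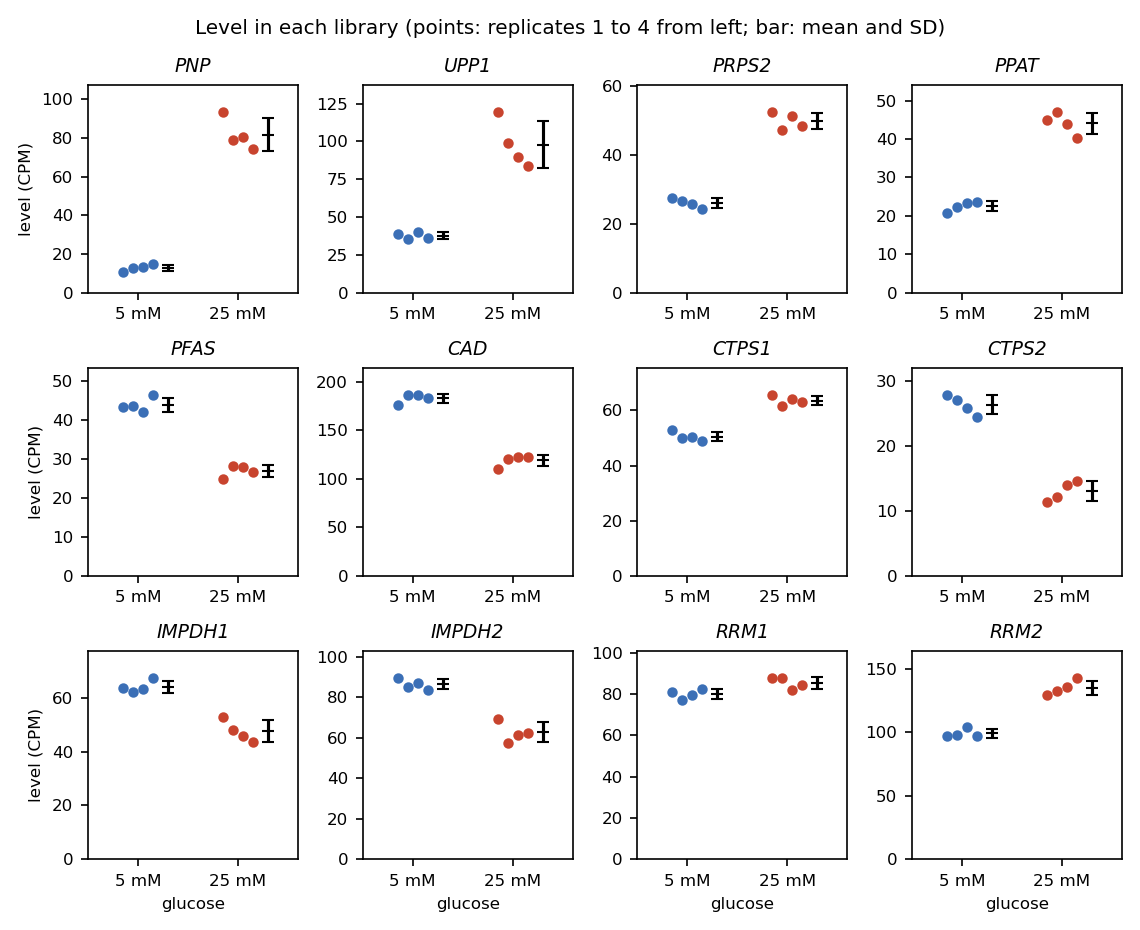
Level in CPM (vertical axes, each from 0) of 12 members in each library at 5 mM and 25 mM glucose. Points are replicates 1 to 4 from the left, with the mean and SD beside them; in all panels except RRM1 the groups do not overlap, and the points of HG1 are the highest of their group for PNP (93.6 CPM) and UPP1 (119.6 CPM).

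De novo pyrimidine synthesis changed mainly at its first and last steps. CAD, the trifunctional enzyme that starts the route, was at 176, 186, 187 and 183 CPM at low glucose and at 110.3, 121, 123 and 122 CPM at high glucose. All high glucose libraries were well below the low glucose ones, with a log2 change of -0.62 ± 0.04 (SE, limma adjusted p = 2.16e-05). CTP synthetase, the last step, is encoded by CTPS1 and CTPS2, and these moved in opposite directions. CTPS1 was at 52.8, 49.9, 50.2 and 48.9 CPM in the low and 65.6, 61.5, 64.1 and 63.1 CPM in the high glucose libraries, so that the log2 change was 0.33 ± 0.03 (SE, limma adjusted p = 1.25e-04). CTPS2 was at 27.8, 27.1, 25.8 and 24.5 CPM in the low and 11.4, 12.1, 14 and 14.7 CPM in the high glucose libraries, so that the change was -0.96 ± 0.09 (SE, limma adjusted p = 9.72e-05). This was the largest fall among the 41 members, and neither gene had overlapping groups. DHODH, the mitochondrial dihydroorotate dehydrogenase, and UMPS, which makes UMP, had log2 changes of 0.01 (95% interval -0.29 to 0.31) and 0.07 (95% interval -0.06 to 0.21) and were not called. The 5 genes summed to 287 to 298 CPM at low glucose and 224 to 234 CPM at high glucose, a difference that CAD alone largely makes up, since it held 176 to 187 CPM of the low glucose sum.

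The salvage genes did not move as a group, with 2 higher, 1 lower and 2 not called. UCK2, a uridine-cytidine kinase, was at 22.4, 22.2, 18.8 and 20.1 CPM at low glucose and at 34.2, 28.9, 28.7 and 33.8 CPM at high glucose. The groups did not overlap, and the log2 change was 0.57 ± 0.08 (SE, limma adjusted p = 0.00126). HPRT1, which salvages hypoxanthine and guanine, was higher by 0.50 on the log2 scale (adjusted p = 0.00612 by limma), from 18.3 ± 2.39 to 26.3 ± 2.68 CPM (SD, n = 4 in each group). APRT, which salvages adenine and so is the purine counterpart of HPRT1, was lower. It was at 26.2, 23.6, 22.9 and 26.8 CPM at low glucose and at 22.6, 15.5, 13.4 and 12.9 CPM at high glucose. Its value in HG1 lay close to the low glucose range, and the log2 change was -0.63 ± 0.17 (SE, limma adjusted p = 0.0192) with HG1 and -0.79 (limma adjusted p = 4.91e-04) without it. The call was narrowly lost without LG1, LG4 or HG3 (limma adjusted p = 0.051, 0.0523 and 0.0514). UCK1, the other uridine-cytidine kinase, was at 29.9, 24.8, 24.5 and 24.8 CPM in the low and 28.0, 22.7, 21.5 and 21.8 CPM in the high glucose libraries. LG1 and HG1 were each the highest of their group, the groups overlapped, and the log2 change of -0.14 was not called (limma adjusted p = 0.302). With a block for replicate number UCK1 was called lower (limma adjusted p = 0.0232). ADK, the adenosine kinase, was not called either, with a change of -0.12 (95% interval -0.34 to 0.09).

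The largest changes of the pathway were in nucleoside phosphorolysis. PNP, the purine nucleoside phosphorylase that splits inosine and guanosine into base and ribose 1-phosphate, was at 10.8, 12.8, 13.2 and 14.7 CPM in LG1 to LG4 and at 93.6, 79.1, 80.4 and 74.0 CPM in HG1 to HG4. Its mean went from 12.9 ± 1.61 to 81.8 ± 8.34 CPM (SD, n = 4 in each group), a ratio of 6.35, and per 1000 bases of transcript from 8.72 to 55.4 CPM. The log2 change was 2.58 ± 0.10 (SE, 95% interval 2.34 to 2.82, limma adjusted p = 3.47e-06), which ranked 5 among the rises of the 11297 genes of at least 5 CPM, and it was 2.51 without HG1. UPP1, the uridine phosphorylase that does the same for uridine, was at 39.1, 35.6, 39.8 and 35.9 CPM at low glucose and at 119.6, 98.6, 89.8 and 83.5 CPM at high glucose. HG1 was the highest, and all high glucose libraries were above 2 times the low glucose mean of 37.6 CPM. Its log2 change was 1.35 ± 0.11 (SE, limma adjusted p = 6.63e-05), rank 116 among the rises, and 1.25 without HG1. TYMP, the thymidine phosphorylase, changed the other way, from 29.4 ± 1.86 to 22.4 ± 3.28 CPM (SD, n = 4 in each group), a log2 change of -0.38 (adjusted p = 0.0233 by limma). TYMP was not called without LG3 (limma adjusted p = 0.0625) or LG4 (limma adjusted p = 0.0601), or with a block for replicate number (limma adjusted p = 0.067). It shares 24.4% of its 31-base words with other genes, the most with SCO2 on the same strand (19.3%).

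The 250 bases before the start of PNP, the gene with the largest change, are shown from RefSeq on GRCh38.p14 as chr14:20469156-20469405 on the plus strand. None of the motifs searched for occurs in this window, so no letters are in capitals.
PNP: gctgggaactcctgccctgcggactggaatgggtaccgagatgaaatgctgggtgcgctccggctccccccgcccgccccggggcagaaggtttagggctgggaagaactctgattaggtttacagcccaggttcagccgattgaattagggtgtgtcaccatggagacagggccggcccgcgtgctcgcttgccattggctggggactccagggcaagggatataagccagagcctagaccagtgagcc
PNP shares 20.7% of its 31-base words with an annotated gene on the other strand that has no values in the table. The neighbouring gene on the other side of the PNP start, APEX1, a DNA repair endonuclease, was lower at high glucose, from 176 to 109 CPM. The genes whose levels followed PNP most closely over the 8 libraries were SUPT5H, GET4, IRX2, BMP7 and ZFYVE27, with a Pearson's r of 0.998 or more on the log2 scale. These correlations mostly carry the difference between the 2 groups that the libraries share, and are given as a description.

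The deaminases and nucleotidases of the turnover arm were less uniform. AMPD2, an AMP deaminase, was at 48.4, 48.5, 50.7 and 53.2 CPM at low glucose and at 70.9, 66.0, 69.1 and 58.3 CPM at high glucose, so that the log2 change was 0.39 ± 0.06 (SE, limma adjusted p = 0.00229) without overlap. AMPD3, of the same family, was barely expressed, at 0.583, 0.497, 0.595 and 0.656 CPM in the low and 0.424, 0.558, 0.742 and 0.978 CPM in the high glucose libraries, a few reads per library. Its groups overlapped, and it was not called (log2 change 0.07, limma adjusted p = 0.61). NT5C3A, a pyrimidine 5′-nucleotidase, was at 19.6, 16.7, 19.6 and 16 CPM in the low and 29.1, 24.4, 25.1 and 23.4 CPM in the high glucose libraries, so that the log2 change was 0.48 ± 0.09 (SE, limma adjusted p = 0.00421). Its groups did not overlap, and 38.3% of its 31-base words also occur in a pseudogene. NT5C2, a cytosolic nucleotidase that prefers IMP and GMP, was at 80.2, 83.8, 84.0 and 89.4 CPM in the low and 79.7, 84.0, 85.2 and 90.7 CPM in the high glucose libraries, with a change of 0.01 (95% interval -0.10 to 0.12). Of its words, 52.7% are shared with CNNM2 on the other strand, which was higher at high glucose (15.5 to 29.8 CPM), and whether the counting used strand was not given in the sources used here. ADA, the adenosine deaminase, had a change of -0.23 that was not called (limma adjusted p = 0.0698), and without HG1 it was -0.29 (limma adjusted p = 0.0312). Together the 8 turnover genes summed to 239.9 to 257 CPM at low glucose and 359.8 to 433 CPM at high glucose, most of the difference being PNP and UPP1.

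In the deoxynucleotide arm, 4 genes were higher, 2 lower and 2 not called, with a median log2 change of 0.12. RRM2, the regulated small subunit of ribonucleotide reductase, was at 97.1, 98.1, 104 and 97.0 CPM at low glucose and at 129, 132, 136 and 143 CPM at high glucose. The groups were clearly apart, with a log2 change of 0.44 ± 0.04 (SE, limma adjusted p = 8.56e-05). Its large subunit partner RRM1 was at 81.2, 76.9, 79.3 and 82.6 CPM in the low and 87.6, 87.7, 81.7 and 84.4 CPM in the high glucose libraries. These groups overlapped, and the log2 change of 0.09 ± 0.03 (SE, limma adjusted p = 0.0498) kept its call in only 5 of the 17 alternatives. It was not called in fits that left out any 1 of LG1, LG2, LG3, HG1, HG2 and HG4 (adjusted p = 0.0751 to 0.118, limma) or removed the length trend (adjusted p = 0.106), and its sign turned under quantile normalization. TYMS, the thymidylate synthase, was higher by 0.35 (adjusted p = 0.00116 by limma), from 84.7 ± 3.07 to 108 ± 7.37 CPM (SD, n = 4 in each group). TYMS shares 55.8% of its words with ENOSF1 on the other strand, which was lower (39.7 to 30.3 CPM). DCK, the deoxycytidine kinase, was higher by 0.39 (adjusted p = 0.00161 by limma), from 24.3 ± 0.70 to 32.3 ± 2.9 CPM (SD, n = 4 in each group).

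The enzymes that lead from dCMP and dUTP to dUMP, the substrate of thymidylate synthase, were both lower. DUT, the dUTPase, was at 38.6, 32.9, 34.1 and 35.2 CPM at low glucose and at 27.8, 23.5, 21.4 and 21.6 CPM at high glucose, so that the log2 change was -0.56 ± 0.09 (SE, limma adjusted p = 0.0018) without overlap. DCTD, the dCMP deaminase, had a change of -0.47 (adjusted p = 0.00115 by limma), from 75.3 ± 1.74 to 54.2 ± 5.67 CPM (SD, n = 4 in each group). TK1, the cytosolic thymidine kinase, and DTYMK, the thymidylate kinase, were not called, and in both HG1 lay far above the other high glucose libraries. TK1 ranged from 83.5 to 86.5 CPM at low glucose and was at 119.9 CPM in HG1, 100.4 in HG2, 86.7 in HG3 and 72.7 in HG4, with a log2 change of 0.14 with HG1 and 0.03 without it. With the length trend removed, TK1 was called higher, by 0.22 (limma adjusted p = 0.0378). DTYMK ranged from 19.8 to 20.8 CPM at low glucose and was at 23.9 CPM in HG1 and at 14.8 to 16.9 CPM in HG2 to HG4, so that its change was -0.20 with HG1 (limma adjusted p = 0.281) and -0.34 without it (limma adjusted p = 0.0017), but -0.095 with the length trend removed (limma adjusted p = 0.346).

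None of the 3 nucleotide kinases passed the test. The nucleoside diphosphate kinase gene NME1 was at 176, 166, 168 and 161 CPM at low glucose and at 225, 170.2, 157 and 162 CPM at high glucose. NME2 was at 557, 526, 558 and 527 CPM in the low and 699.5, 559, 493 and 471 CPM in the high glucose libraries. In both genes HG1 was the highest of all 8 libraries, and the log2 changes of 0.08 and 0.02 became -0.04 and -0.10 without it. With the length trend removed they were 0.19 (limma adjusted p = 0.00804) and 0.15 (limma adjusted p = 0.0459). Per 1000 bases of transcript, NME2 was the most abundant of the 41 members, at 786 CPM in the low and 805 CPM in the high glucose libraries, and AMPD3 the least, at 0.139 and 0.161 CPM. NME2 shares 87.0% and NME1 45.4% of their words with the readthrough gene NME1-NME2, so that the split of reads between them is uncertain. CMPK1, the UMP-CMP kinase, had a change of 0.08 (95% interval -0.08 to 0.25).

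For 8 pairs of members that catalyse the same step, belong to 1 enzyme family or form 1 enzyme, the log2 ratio within each library of CPM + 1 was compared between the groups. An exact 2-sided permutation test over 70 assignments was used, whose smallest p is 0.0286, and p-values were adjusted over the 8 pairs. In 5 pairs the groups did not overlap, each with an exact p of 0.0286 and an adjusted p of 0.0457 (permutation). Any pair whose groups separate gets this exact p, so the adjusted p follows from the number of such pairs. How often the ratios of other gene pairs separate was not computed. Among single genes of at least 5 CPM, 65% had groups without overlap, so the count of pairs is given as a description. The ratio of CTPS1 to CTPS2 rose the most, by 1.29 on the log2 scale, from 0.86 to 0.97 in the low glucose libraries to 2.03 to 2.43 in the high glucose libraries. Since CTPS1 lay wholly above and CTPS2 wholly below its low glucose values, this ratio had to separate. Its p-value adds nothing to the results of the single genes. The ratio of PRPS1 to PRPS2 fell by 0.60, from between -0.13 and 0.01 to between -0.78 and -0.60. UCK1 over UCK2 fell by 0.71, and the sign of the ratio turned, from 0.15 to 0.40 at low glucose to between -0.61 and -0.28 at high glucose. NT5C2 over NT5C3A fell by 0.47 and RRM1 over RRM2 fell by 0.35. NT5C2 and RRM1 changed little (0.01 and 0.09) and NT5C3A and RRM2 were called by themselves. These ratios thus largely repeat the results of the single genes. In the remaining pairs the groups overlapped. The ratio of IMPDH1 to IMPDH2 differed by 0.04 (exact p = 0.571, adjusted p = 0.571), NME1 over NME2 by 0.06 (exact p = 0.171, adjusted p = 0.196) and AMPD2 over AMPD3 by 0.31 (exact p = 0.143, adjusted p = 0.19). At the level of AMPD3 the added 1 CPM outweighs the value itself, and with 0.1 CPM added the difference was 0.26. The genes of a pair can differ in length, which moves with HG1, and with the length trend removed the ratio of IMPDH1 to IMPDH2 differed by -0.02.

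**Figure D4:**
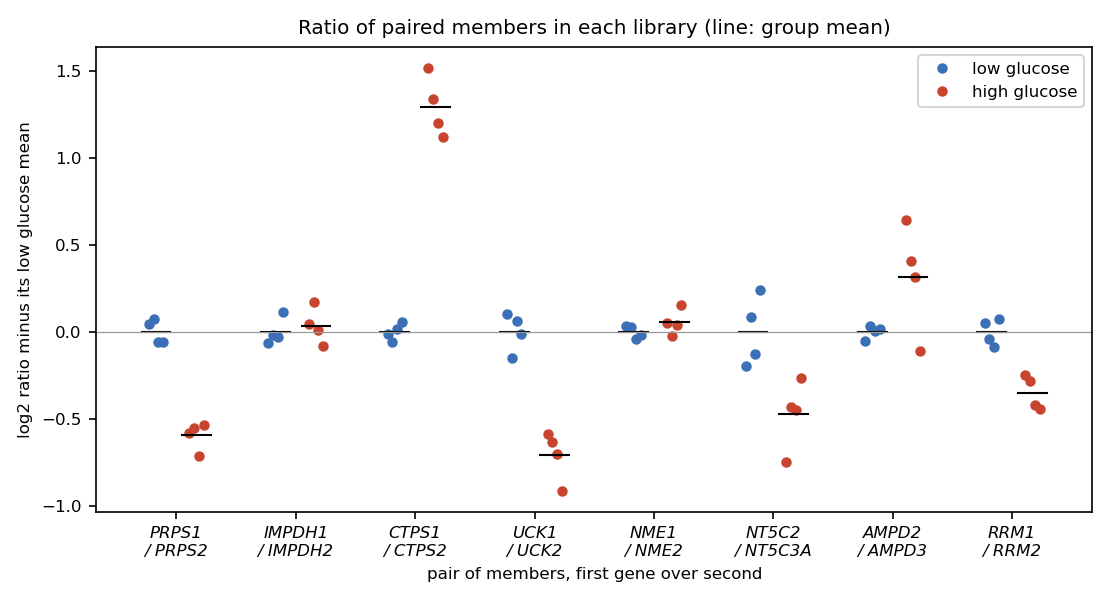
Log2 ratio of paired members in each library, minus the low glucose mean of the pair (vertical axis), for 8 pairs (horizontal axis). Points are libraries, lines are group means; the high glucose points lie wholly above the low glucose points for CTPS1 over CTPS2 (1.29) and wholly below them for PRPS1 over PRPS2, UCK1 over UCK2, NT5C2 over NT5C3A and RRM1 over RRM2.

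Set against each other, the 17 de novo genes held 5 higher, 7 lower and 5 not called, with a median log2 change of 0.01, and the 13 salvage and turnover genes held 6 higher, 2 lower and 5 not called, with a median of 0.07. The 8 deoxynucleotide genes held 4 higher, 2 lower and 2 not called, with a median of 0.12. Whether the arms differ from each other was not tested. Each of these arms held both rises and falls.

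Other genes that feed or drain the pathway were counted in the same fit. Between 20% and 75% of a list was called, against 46.8% of all genes and 66.9% of those of at least 5 CPM. The counts of these lists are therefore given as a description. The serine and folate carbon genes, which supply glycine and formyl groups to the purine ring and a methyl group to thymidylate, were mostly lower, with 10 of 16 lower and 2 higher and a median log2 change of -0.30. The 10 include ALDH1L1, which was below 3 reads in every library, and with the length trend removed 9 were lower and 3 higher. PHGDH, the first enzyme of serine synthesis, went from 232 to 99.8 CPM, PSAT1 from 150 to 67.0 CPM, SHMT2 from 234 to 125 CPM and MTHFD2 from 285 to 206 CPM, while the folate carrier SLC25A32 and SHMT1 were higher. Their summed level was 1429 to 1456 CPM at low glucose and 917 to 1029 CPM at high glucose. The other de novo genes held 1 higher, ADSS, and 2 lower, ADSSL1 and PRPSAP1, of 4. Of 10 other deoxynucleotide genes, 5 were lower, DNPH1, NT5C, NT5M, TK2 and DGUOK, with a median of -0.27. Among 16 other salvage and degradation genes in the table, 1 was higher, LACC1, and 7 were lower, among them DPYD, which starts uracil and thymine breakdown (31.7 to 20.4 CPM). Among 16 other nucleotide kinases, 4 were higher, AK4 (23.2 to 46.5 CPM) and AK3 among them, and 6 were lower, AK5 (30.9 to 13.3 CPM), NME4 and AK7 among them. Of 5 nucleoside transporters in the table, SLC29A2 was lower (6.15 to 2 CPM) and 4 were not called. Of 11 ectonucleotidase genes, 2 were higher, NT5E and ENTPD6, and 5 were lower. A mean of at least 5 CPM was reached by 10 of the 16 other salvage and degradation genes. It was reached by 9 of the 16 other nucleotide kinases and 7 of the 11 ectonucleotidase genes. In each of these lists a called gene held only a few reads per library.

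Cell cycle genes moved with the groups beside these results. Of 20 listed genes of replication and mitosis, 16 were higher at high glucose and 1, MCM6, was lower, with a median log2 change of 0.61, and their summed level was 1318 to 1353 CPM in the low and 1947 to 2030.3 CPM in the high glucose libraries. Called genes were 85% of this list, against 66.9% of genes of at least 5 CPM. MCM4, a subunit of the replicative helicase, went from 136 to 213 CPM and E2F1 from 27.3 to 55.5 CPM. The deoxynucleotide genes RRM2, TYMS and DCK were higher in the same libraries by 0.35 to 0.44 on the log2 scale, while DUT and DCTD were lower and TK1 was not called. The part of the cell cycle in these differences was not tested.

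**Figure D5:**
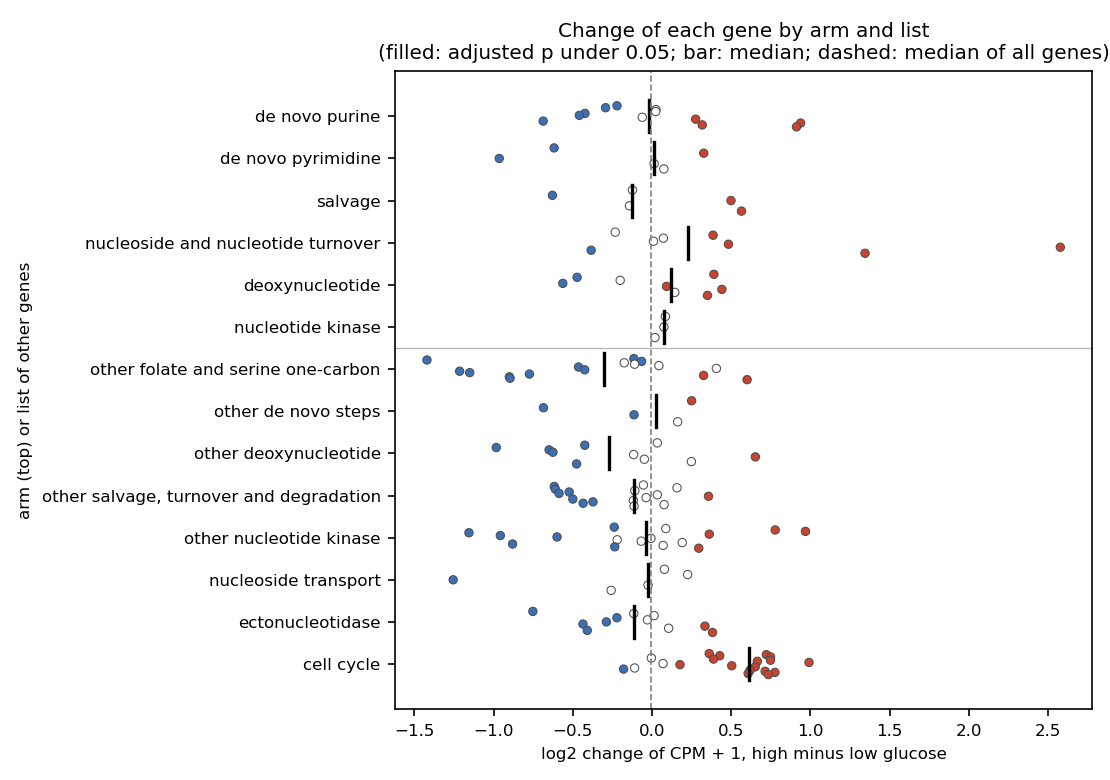
Log2 change of CPM + 1, high minus low glucose (horizontal axis), of each gene in the 6 arms of members (top) and in 8 lists of other genes (bottom). Filled points passed an adjusted p of 0.05 (red higher, blue lower), bars are list medians and the dashed line is the median of all genes; the cell cycle list has a median of 0.61 and the serine and folate carbon list of -0.30.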

How the data were processed

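RNA of 8 libraries of the MDA-MB-157 cell line was sequenced on an Illumina HiSeq, and groups were taken from the labels. The authors deposited 1 table of normalized CPM values. Per the submitters' processing notes, edgeR and the hg38 build were used, whereas the study's methods, in a section on tumors that also covers cells, give stranded libraries, TopHat on hg19, a filter on low CPM and TMM scaling. The counting tool and its use of strand are not given in the sources used here. Values lay on steps of 1 read in only 74.2% to 75.3% of cases (tolerance 0.03 read), so counts were not recovered; depths and floors of 3 reads come from those steps and cover counting error only. Of 21077 lines, 18 Y copies identical to the X copies were left out.

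The 21059 genes were compared on log2(CPM + 1), a scale that understates changes of low genes, with limma 3.58.1 in R 4.3.3 (trend, 2-sided, no covariate) and Benjamini-Hochberg adjustment over all of them. The method was tested on simulated data. Ratios of 8 pairs were compared by exact permutation with scipy 1.17.1. Alternatives were a pseudocount of 0.1, a minimum of 5 CPM, other scalings (median of ratios, equal totals, quantile), no trend, library weights, a replicate block, removal of the trend along transcript length (spline with 5 degrees of freedom) and leaving out each library. Lengths and shared 31-base words are from GENCODE release 44 canonical transcripts on GRCh37. Positions and promoters are from RefSeq on GRCh38.p14 and describe the annotation, not the alignment. Promoters were searched over 250 bases before the listed start, and ADSL and IMPDH2 were not searched. The listed start can lie inside the gene as annotated, as among others for NT5C2, PFAS, UPP1, GMPS and AMPD3.

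Members and lists were chosen with earlier results of these data known. Values in every library are given for members with an adjusted p under 0.05 and a log2 change of at least 0.5 either way, and for both genes of each pair; TK1 was chosen after its values were seen. In other lists the genes named are at most the 4 with the smallest adjusted p, and those where a count is 5 or fewer, of which 1 is not reported here. Whether replicate numbers pair the libraries is not known from the sources used here.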

Additional observations from a re-analysis of the deposited data

Results flagged for a closer look

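Gaps within groups of 4 libraries were examined in 100 groups, in which chance gives about 5 gaps past Dixon's critical value, and 4 were found, all at low glucose. UCK1 was at 29.9 CPM in LG1 and 24.5 to 24.8 CPM in the other 3, a gap of 0.945 of the range, and this library enters the ratio of UCK1 to UCK2. RRM2 was at 104 CPM in LG3 against 97.0 to 98.1 CPM (gap 0.859), TK1 at 86.5 CPM in LG2 against 83.5 to 83.8 CPM (gap 0.909), and LG4 held 1.21e+07 reads against 1.04e+07 to 1.06e+07 (gap 0.864).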

How the results depend on the processing

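Over 17 alternatives to the limma fit, the number of genes called ranged from 8120 to 10635, and the members called from 14 to 17 higher and from 9 to 13 lower. Of the 26 members called, 23 stayed called in every alternative; APRT, TYMP and RRM1 did not. Of the 15 not called, 7 passed in an alternative. Deviations of same-numbered libraries correlated at -0.04 to 0.07, and those of differently numbered ones at -0.14 to 0.07. With 4 libraries in each group, these values cannot settle whether replicate numbers pair the libraries. With the replicate block 8921 genes were called, among the members 14 higher and 11 lower. In that fit RRM1 and TYMP were not called (adjusted p = 0.102 and 0.067, limma) and UCK1 was called lower (adjusted p = 0.0232, limma). The sign turned only near 0. Under quantile normalization the log2 change was -0.10 for GART, -0.079 for GMPS, -0.10 for NT5C2, -0.016 for RRM1, -0.033 for NME1 and -0.040 for CMPK1. Library weights gave -0.033 for DHODH, -0.017 for NME1 and -0.059 for NME2. With the length trend removed, DHODH was at -0.021, NT5C2 at -0.015 and IMPDH1 over IMPDH2 at -0.024. With 1 library left out, values ranged from -0.065 to 0.090 for DHODH, -0.011 to 0.039 for GMPS, -0.011 to 0.15 for AMPD3, -0.023 to 0.039 for NT5C2, -0.040 to 0.13 for NME1 and -0.10 to 0.092 for NME2. The cause was not tested. AMPD3 had no value under the minimum of 5 CPM, and pairs with 1 library left out are values without a test.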
